A study of Mus musculus with 36 samples.

Results

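The 200 transcripts described here were abundant as RNA in unstressed mouse fibroblasts and carried few ribosomes for that abundance. Ribosome footprints were measured as RPKM (reads scaled by coding length and library total), and RNA as FPKM (fragments scaled by transcript length and library total). For each transcript the mean footprint RPKM of the 2 Normal Condition libraries was divided by the mean RNA FPKM of the 2 Normal Condition libraries. The 200 lowest ratios were taken among the 5707 transcripts with at least 10 FPKM that were listed in both footprint libraries, and these 200 are called members below. Of 17478 transcripts listed in at least 1 library of the series, 5829 reached 10 FPKM. The Normal Condition libraries of both assays therefore chose the members, and every comparison with them is given as a description, with no test.

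The cells were mouse embryonic fibroblasts (MEFs), connective tissue cells grown from embryos, of strain C57BL/6J, with no genetic change named. Hyperosmotic stress was produced by adding sorbitol to the medium. There were 9 conditions. Cells were unstressed (Normal Condition), or held at 500 mOsm or at 600 mOsm, each for 2 h. Others were held at 700 mOsm for either 15 min (the short exposure) or 2 h (the long exposure), and some of those were then allowed 15 min or 2 h to recover. Per condition, 2 Ribo-seq and 2 RNA-seq libraries were made, 36 in total. Ribo-seq sequences the 28 to 30 nt of mRNA that a ribosome shields from nuclease, and here it was made from gradient fractions with 1 or more ribosomes per RNA. Each library was labelled as a replicate, but nothing says that the replicates came from separate cultures, so p-values may measure technical spread only.

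The number of ribosomes on an mRNA depends on how often ribosomes start on it and how fast they move along it. Start rates differ widely between mRNAs with the structure and upstream reading frames of the 5′ leader and with regulatory proteins, and some RNAs are held in the nucleus, in granules or in a translationally silent state. Hyperosmotic stress shrinks the cell and slows starting on most mRNAs, and starting resumes when the medium is restored. An RNA with few footprints may thus be poorly translated, or its reads may come from a form that ribosomes do not reach, and the ratio used here does not separate these cases.

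Footprint libraries held 744700 to 9108030 reads, and those of the 700 mOsm stress conditions were the shallowest, at 744700 to 1079130 reads. RNA libraries held 6851961 to 55262422 reads, with the fewest in replicate 2 of 700 mOsm 2 h. Paired footprint libraries were nearly as close as counting noise allows (chi-square per degree of freedom of 1.01 to 1.09 over transcripts), so they were counted as 1 sample and footprint values carry no p-value or SD. A transcript is missing from a footprint list where it had too few reads, and at most 0.304% of the listed values rested on fewer than 5 reads. The RNA libraries labelled 700 mOsm 15 min with recovery 2 h and 700 mOsm 2 h with recovery 15 min have file names that give the reverse assignment. They are used as labelled, and the members' median ratios that rest on them are also given with the 2 groups exchanged. Counts, class medians and ratios of single members that rest on them are given as labelled only. The deposited lists hold Ensembl transcript identifiers without gene names, and the tables used here pair none of them with a symbol. Members are therefore identified by coding length and rank, fibroblast markers could not be checked, and no protein role is stated. In bulk samples, fewer cells with an RNA and less of it per cell cannot be told apart.

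In unstressed cells the members' ratio ran from 0.00472 to 0.312 with a median of 0.199 (quartiles 0.134 and 0.261). The other 5507 eligible transcripts had a median of 1.72. These values chose the members and are no finding. Just inside the threshold the ratios were 0.307, 0.310 and 0.312, and just outside they were 0.312, 0.312 and 0.313, so membership at the edge rests on very small differences. The members were not less abundant as RNA: their median was 30.0 FPKM, beside 27.8 FPKM in the other eligible transcripts. Their median footprint level was 5.78 RPKM, beside 51.5 RPKM. All members together held 6.40% of the RNA value of unstressed cells and 0.443% of the footprint value.

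**Figure D1:**
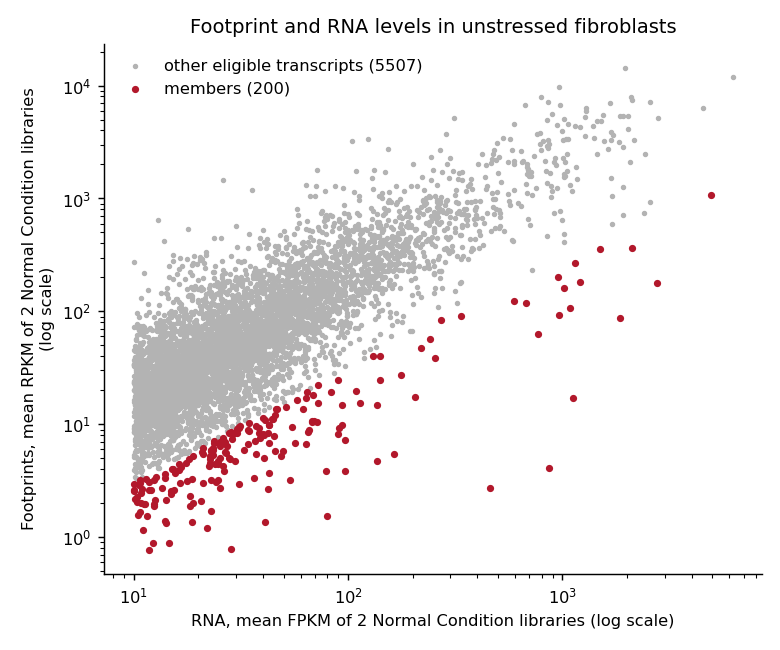
Mean footprint RPKM (vertical, log scale) against mean RNA FPKM (horizontal, log scale) of the 2 Normal Condition libraries, 1 point a transcript, with the 200 members in red and the 5507 other eligible transcripts in grey. The members span the RNA range from 10.0 to 4910 FPKM and lie along the lower edge of the cloud, where the rule placed them.

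The depth behind these ratios varied widely. A member had a median of 157.5 footprint reads over both Normal Condition libraries, with a range of 15 to 24624. The other eligible transcripts had a median of 999 reads. Choosing members from replicate 1 of both assays alone kept 176 of the 200, and replicate 2 alone also kept 176. The lists chosen from each replicate shared 156 transcripts.

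The 10 lowest ratios included both rare and very abundant RNAs. At rank 1 was a member with 903 codons, whose RNA was 670.5 and 1061 FPKM in the 2 Normal Condition libraries and whose footprints were 4.12 and 4.04 RPKM. Its ratio of 0.00472 rested on 164 footprint reads. At rank 2 was a member with 124 codons and no recovered non-coding sequence, with 460 FPKM of RNA and only 15 footprint reads, so its ratio of 0.00590 is imprecise. At rank 3, a member with 184 codons had 1116 FPKM and a ratio of 0.0154 from 141 reads. The remaining 7 had ratios of 0.0194 to 0.0474.

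The member with the most RNA had 515 codons and no recovered non-coding sequence. It measured 5239 and 4581 FPKM and 1064 and 1085 RPKM in unstressed cells, a ratio of 0.219 at rank 115. Next came a member with 133 codons, at 2766 FPKM with a ratio of 0.0645, and one with 303 codons, at 2104 FPKM with a ratio of 0.174. Of the members, 32 had over 100 FPKM (16.0%, beside 13.7% of the other eligible transcripts), and 55 had at most 20 FPKM (27.5% beside 34.5%).

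Members had longer coding sequences than the other eligible transcripts. The lengths were solved from the deposited values, as described under the processing. The median coding length was 584.5 codons (quartiles 363 and 859) in members and 411 codons (quartiles 244 and 663) in the others. Coding lengths of up to 400 codons were found in 60 of 200 members, 30.0%, beside 48.8% of the others. Lengths over 1600 codons were found in 14 members, 7.0%, beside 3.12% of the others. Coding length is part of the ratio, because RPKM divides by coding length and FPKM by transcript length, so this difference is a description and its part in the ratio was not tested. At equal RPKM a shorter coding sequence also has fewer reads, and eligible transcripts had to be listed in both footprint libraries. Of the 5829 transcripts with at least 10 FPKM, 5707 were eligible, and the part of this filter in the length was not tested. Transcripts at ranks 201 to 400 had an even longer median, 668 codons, so the length is not particular to the members.

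Transcript lengths differed less, with medians of 3018 nt in members and 2595 nt in the others. The coding share of the transcript was 66.7% in members at the median and 55.3% in the others. Non-coding length was similar at the median, 1032 nt beside 1004 nt, and the sign of this small difference turned against transcripts of the same RNA range (1066 nt). The ends of the distribution differed more. No non-coding sequence was recovered for 9 members, 4.5%, beside 0.563% of the others, and over 2000 nt for 17.5% of members, beside 23.8%. In counted reads, without any length, members had a median of 18.6 footprint reads per 1000 RNA reads and the others 143. These are reads of the libraries that chose the members, so the values only describe the choice.

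At moderate stress the members had still fewer footprints relative to their RNA. At 500 mOsm for 2 h the members' median ratio was 0.0550, beside 0.199 in unstressed cells, while the other eligible transcripts had 1.62 beside 1.72. At 600 mOsm for 2 h it was 0.0335, beside 1.28 in the others. A member missing from a footprint list counts as 0 here. With each missing member set to 4 reads, an upper bound, the medians were 0.0603 at 500 mOsm and 0.0655 at 600 mOsm. The members' RNA hardly moved at the median, with 30.0 FPKM unstressed, then 29.9 (500 mOsm) and 28.3 FPKM (600 mOsm).

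Member by member, the ratio at 500 mOsm was at least 2-fold lower than in unstressed cells in 126 of 200 and at least 4-fold lower in 70. Of all 5707 eligible transcripts, 19.7% were at least 2-fold lower and 6.4% at least 4-fold lower. A ratio at least 2-fold higher was seen in 4 members (0.403% of all). The median change was -1.54 on the log2 scale in members and -0.06 in the others. Among 186 members with at least 20 footprint reads expected from the unstressed footprint level at the depth of these libraries, 125 were at least 2-fold lower. Of the 19 members missing from both footprint libraries at 500 mOsm, 15 had at least 20 expected reads. At 600 mOsm, 120 members were at least 2-fold lower and 12 at least 2-fold higher, beside 36.4% and 4.22% of all eligible transcripts.

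A comparison that leaves the Normal Condition libraries out gave a similar count. Cells recovering for 15 min from 700 mOsm 15 min had a median member ratio of 0.190, close to that of unstressed cells. Against this recovery, 137 members had an at least 2-fold lower ratio at 500 mOsm, beside 19.2% of all eligible transcripts, with a median change of -1.57.

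The change was graded over the range of baseline ratios and did not set the members apart. In consecutive bins of 200 transcripts from the lowest unstressed ratio upward, the median log2 change at 500 mOsm was -1.54 in the members, -1.48 in ranks 201 to 400, then -1.22, -1.21 and -0.79. In the bin of highest ratios it was 0.33. At 600 mOsm the corresponding first values were -1.39 in the members and -1.88 in ranks 201 to 400, and the last was 0.61. In the members at 600 mOsm, 57 of 200 were missing from both footprint libraries and their change is an upper bound. Of these 57, 40 had at least 20 expected reads. Among the 169 members with at least 20 expected reads at 600 mOsm the median change was -1.71.

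**Figure D2:**
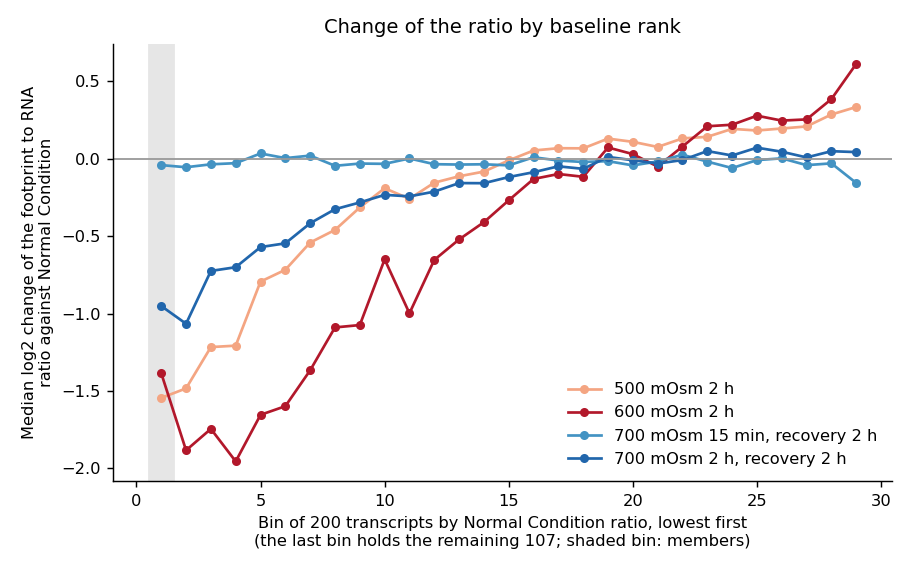
Median log2 change of the footprint to RNA ratio against Normal Condition (vertical) for bins of 200 transcripts ordered by their unstressed ratio (horizontal, lowest first; the last bin holds 107; the members are shaded), in 4 conditions, with missing values set to 4 reads. The changes at 500 mOsm, at 600 mOsm and after recovery from 700 mOsm 2 h are most negative in the lowest bins and near or above 0 in the highest, and recovery from 700 mOsm 15 min is flat near 0.

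At 700 mOsm the footprint lists were too shallow to follow most members. Both footprint libraries listed 76 of 200 members at 15 min and 98 at 2 h, beside 76.6% and 83.0% of the other eligible transcripts. The median ratio was 0.0586 at 15 min and 0.117 at 2 h with missing members at 0, and 0.197 and 0.221 with them at 4 reads. The upper bound at 15 min lay just below the unstressed median of 0.199, and the bounds at 2 h span it. Single unstressed replicates gave medians of 0.185 and 0.202, on both sides of the bound at 15 min. Member by member, the median log2 change at 15 min was 0.15 with missing members at 4 reads. Over all 200 members, neither the size nor the direction of a difference was thus detectable at this depth, at 15 min or at 2 h. At 15 min, 28 members were at least 2-fold lower and 25 at least 2-fold higher than in unstressed cells, beside 50.0% and 6.83% of all eligible transcripts. At 2 h, 22 were lower and 31 higher, beside 45.2% and 7.94%. A count of lower members is limited here, because a missing member with few expected reads cannot pass it. At 15 min, 101 members had at least 20 expected reads, with 27 lower, 20 higher and a median change of -0.36. At 2 h, 93 had as many, with 18 lower, 18 higher and a median of -0.26. Other eligible transcripts with as many expected reads had medians of -1.09 and -0.91, with 2809 of 5378 and 2530 of 5309 lower.

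The other eligible transcripts also had lower median ratios at 700 mOsm, 0.714 at 15 min and 0.800 at 2 h, beside 1.72 without stress. Divided by the median of all eligible transcripts, the members' median was 0.0887 at 15 min and 0.157 at 2 h with missing members at 0, beside 0.119 without stress. The members' share of all footprint value was 0.579% at 15 min and 0.733% at 2 h, against 0.443% without stress, 0.336% (500 mOsm) and 0.381% (600 mOsm). Their share of RNA was 6.72% and 7.40% in the 700 mOsm conditions and 6.40% in unstressed cells. In single libraries at 700 mOsm 2 h it was 7.04% and 7.77%. The members' median RNA was lower, 20.4 FPKM at 15 min and 25.2 FPKM at 2 h, beside 30.0 FPKM without stress. The other eligible transcripts had medians of 25.5 and 24.6 FPKM, beside 27.8 FPKM. The share thus did not follow the median member. In counted reads, members held 0.675% of the footprints of unstressed cells (95% Wilson interval 0.670 to 0.679) and 1.32% at 700 mOsm 2 h (1.30 to 1.34), and these intervals cover counting error only. The member with 515 codons was the largest contributor in every condition. Without it the members' share was 0.347% before stress, then 0.214% (500 mOsm), 0.208% (600 mOsm), 0.393% (700 mOsm, short) and 0.485% (700 mOsm, long).

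**Figure D3:**
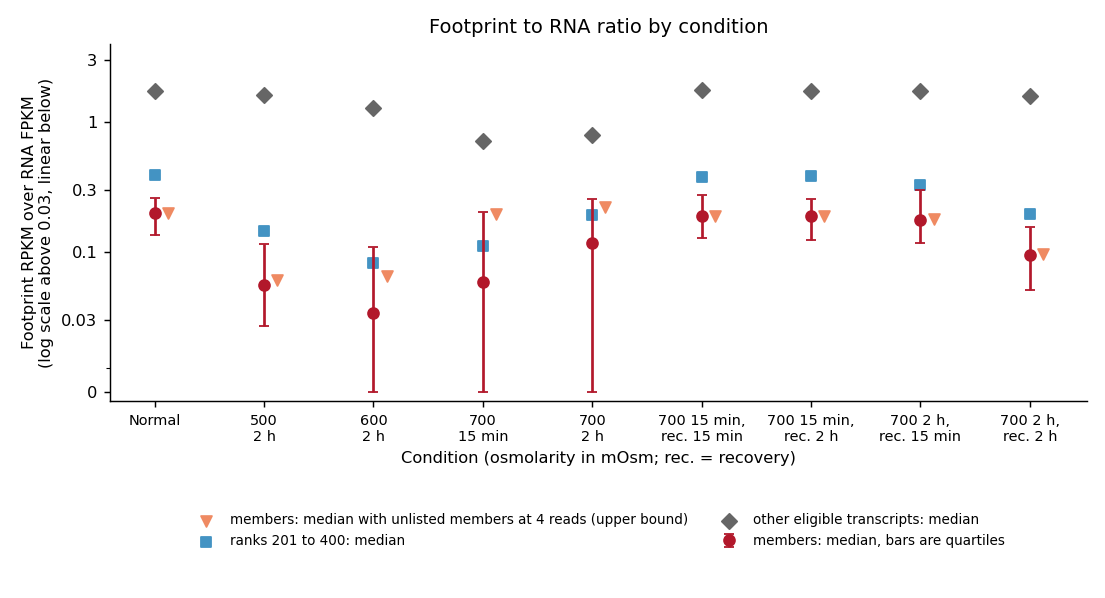
Footprint RPKM over RNA FPKM (vertical, log scale above 0.03 and linear below) in the 9 conditions (horizontal), as the members' median with quartiles, the same median with missing members at 4 reads, and the medians of ranks 201 to 400 and of the other eligible transcripts. The members lie at 0.199 without stress, 0.0550 (500 mOsm), 0.0335 (600 mOsm), and 0.0951 in late recovery from 700 mOsm 2 h. At 700 mOsm the 2 member medians lie far apart because many members were not listed.

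After the short exposure the members were again near their unstressed ratio. Following 700 mOsm for 15 min, the median was 0.190 at 15 min of recovery and 0.188 at 2 h, and 191 and 198 members were listed in both footprint libraries. At 15 min, 5 members were at least 2-fold lower than in unstressed cells and 14 at least 2-fold higher, beside 0.473% and 0.613% of all eligible transcripts. At 2 h of recovery 4 members were at least 2-fold lower than in unstressed cells and 0 at least 2-fold higher, beside 0.438% and 1.21% of all eligible transcripts. With the RNA of the 2 doubtful groups exchanged, the median at 2 h was 0.197. The quartiles of the members' log2 change were -0.25 and 0.25.

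After the long exposure the ratio was near the unstressed one early and low later. Following 700 mOsm for 2 h, the members' median was 0.174 at 15 min of recovery (0.176 with the RNA groups exchanged) and 0.0951 at 2 h. At 15 min, 18 members were at least 2-fold lower and 34 at least 2-fold higher, beside 6.92% and 3.1% of all eligible transcripts. At 2 h, 95 of 200 members were at least 2-fold lower than in unstressed cells and 13 at least 2-fold higher, beside 10.6% and 0.578% of all eligible transcripts. The median log2 change was -0.95 in members, -1.07 in ranks 201 to 400 and -0.14 in the other eligible transcripts, so the change was again not particular to the members. The other eligible transcripts were at 1.58, beside 1.72 in unstressed cells.

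Footprints alone, without RNA or unstressed libraries, gave the same order. Footprint values were scaled between libraries by the median ratio of 4619 transcripts. From 15 min to 2 h of recovery after the long exposure, 87 members had at least 2-fold fewer footprints and 2 at least 2-fold more, beside 4.89% and 2.65% of all eligible transcripts. The median change was -0.88 on the log2 scale over the 171 members listed in both. Between the recoveries of 2 h, 93 members had at least 2-fold fewer footprints after the long than after the short exposure and 12 had more, beside 9.79% and 1.66%. Without scaling, 94 and 91 members had fewer footprints in these comparisons, and 2 and 12 had more. Of the 5507 other eligible transcripts, 241 and 453 then had fewer, and 132 and 84 had more. Between 15 min and 2 h of recovery from the short exposure the members' median change was -0.06, with 10 members at least 2-fold lower and 6 at least 2-fold higher (0.403% and 0.438% of all).

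Many members had low ratios in other conditions as well. When the rule was applied afresh, 146 members were among the 200 lowest ratios at 15 min and 157 at 2 h of recovery from the short exposure. The number was 116 at 15 min and 126 at 2 h of recovery from the long exposure. It was 113 at 500 mOsm and 71 at 600 mOsm. Of these, 18 and 48 members were missing from both footprint libraries and so had a ratio of 0. Over all eligible transcripts the ratio was 0 for 38 of 5692 at 500 mOsm and 159 of 5565 at 600 mOsm. These lists held 3.40% to 3.64% of the transcripts eligible in each condition. At 700 mOsm 15 min the ratio was 0 for 641 of 5204 eligible transcripts (12.3%) and for 61 of 162 eligible members (37.7%). At 700 mOsm 2 h it was 0 for 375 of 5045 (7.43%) and for 44 of 169 members (26.0%).

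Classes of members differed in their ratios under stress. The 14 members with over 1600 codons were listed in both footprint libraries of every condition. Their median ratio was 0.208 without stress and 0.0953 with 500 mOsm. It was 0.862 in the short and 0.268 in the long exposure to 700 mOsm, and 0.163 after 15 min of recovery from the short exposure. Members with over 100 and up to 400 codons had 0.174 in unstressed cells and 0.0516 at 500 mOsm, and only 18 of 58 were listed at 700 mOsm 15 min. At 700 mOsm only the class of longest members could be followed in full.

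The 9 members without recovered non-coding sequence had ratios at moderate stress near their unstressed ones. Their median was 0.219 without stress, 0.179 (500 mOsm), 0.206 (600 mOsm) and 0.167 at 2 h of recovery from the short exposure. The 35 members with over 2000 nt of non-coding sequence went from 0.207 to 0.0497 and 0.0221 at 500 and 600 mOsm. The 32 members with over 100 FPKM went from 0.158 to 0.111 and 0.0931. These classes overlap, and they were set after the values had been seen.

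Single members diverged. The member with 515 codons had footprints of 1064 and 1085 RPKM in Normal Condition, 1400.1 and 1387 RPKM at 500 mOsm, and 2220.3 and 2239.8 RPKM at 600 mOsm. In the 700 mOsm stress they were 2434 and 2485 RPKM after 15 min and 3813 and 3815 RPKM after 2 h. Its ratio was 0.219, 0.441 and 0.675 in the first 3 of these conditions, and thus opposite to the members' median. The 2 footprint libraries of each of these conditions lay close together and no pair overlapped another. Each pair counts as 1 sample, so this describes counting precision only.

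The member with 137 codons at rank 10 had 88.3 and 87.3 RPKM in unstressed cells, 230.3 and 201 at 600 mOsm, 578 and 521 at 700 mOsm 15 min, and 1585 and 1581 at 700 mOsm 2 h. Its RNA was 1894 and 1812 FPKM in unstressed cells and 2714 and 2639 FPKM at 700 mOsm 2 h, so its ratio went from 0.0474 to 0.591. It was 0.593 at 15 min of recovery from the long exposure and 0.135 at 2 h. Footprint RPKM in a library is a share of that library's reads, so a higher value at 700 mOsm does not give the number of ribosomes.

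The member with 318 codons and 404 nt of non-coding sequence differed in the other direction. Its footprints were 365 and 347 RPKM before stress, 79.5 and 78.3 at 500 mOsm, and 12.8 and 8.71 at 600 mOsm. RNA was 1383 and 1623 FPKM, 1568 and 1633 FPKM, and 1664 and 1674 FPKM in the same conditions. The ratio was 0.237, 0.0493 and 0.00644, then 0.194 at 2 h of recovery from the short exposure, and was 0.0387 at 2 h of recovery from the long one. A second member with 318 codons, with 121 nt of non-coding sequence, had 0.159, 0.0334 and 0.00767 in the first 3 of these conditions.

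At 500 mOsm the highest ratio relative to the unstressed one was in a member with 5590 codons, from 0.176 to 0.479, on 778 unstressed footprint reads. It measured 2.16 at 700 mOsm 15 min. The lowest ratio relative to the unstressed one, among members listed in both libraries, was in a member with 589 codons, from 0.292 to 0.0277. Its ratio was 0.0126 at 600 mOsm and 0.257 at 2 h of recovery from the short exposure.

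RNA levels between stressed or recovering conditions were tested with limma on log2(scaled FPKM + 1), over 9275 transcripts, at an adjusted p of 0.05, with 2 libraries a group. These contrasts use no Normal Condition library and none of the 4 RNA libraries whose labels are in doubt. All 200 members passed the filter on low values, which the rule's minimum of 10 FPKM made likely.

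Most members had more RNA in early recovery than at the end of the short exposure. Between 700 mOsm 15 min and 15 min of recovery from it, 135 of 200 members rose and 36 fell, beside 40.9% and 27.3% of all transcripts tested. The members' median log2 difference was 0.34, and that of all transcripts was 0.07. The members' median RNA, as deposited, was 30.0 FPKM in unstressed cells, 20.4 at 700 mOsm 15 min and 27.0 after 15 min of recovery. Of the risen members, 61 rose by at least 1.5-fold and 12 by at least 2-fold, beside 10.1% and 0.906% of all transcripts tested. The rises ran along coding length. All 14 members with over 1600 codons rose, as did 41 of 43 with over 800 and up to 1600 codons, 60 of 83 with over 400 and up to 800, and 20 of 60 with up to 400 codons. Among the other eligible transcripts the shares that rose in these classes were 58.1%, 54.4%, 48.7% and 24.1%, so part of the pattern with length was shared.

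ENSMUST00000092956, a member with 5657 codons at rank 156, had 27.0 and 26.2 scaled FPKM at 700 mOsm 15 min and 107 and 111 after 15 min of recovery. The groups did not overlap, and it rose by 1.99 on the log2 scale (SE 0.034, limma adjusted p = 5.85e-16). With only the groups compared in the fit, its rise was 2.01 (limma adjusted p = 2.53e-09). Its footprints were 27.3 and 28.7 RPKM at 700 mOsm 15 min and 60.3 and 62.0 RPKM in recovery. ENSMUST00000093162, with 688 codons and 5462 nt of non-coding sequence, had 13.2 and 13.1 scaled FPKM in the stress and 32.4 and 33.0 in recovery. It rose by 1.25 (SE 0.038, limma adjusted p = 2.07e-12). It was not listed in either footprint library at 600 mOsm or in either 700 mOsm stress condition, and had 7.10 and 6.75 RPKM after 15 min of recovery.

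ENSMUST00000104941, with 104 codons at rank 30, had 1759 and 1722 scaled FPKM at 700 mOsm 15 min and 874 and 833 in recovery, and fell by 1.03 on the log2 scale (SE 0.091, limma adjusted p = 6.79e-08). ENSMUST00000082392, with 319 codons and no recovered non-coding sequence, had 2054 and 2165 scaled FPKM in the stress and 1049 and 1027 in recovery, and fell by 1.02 (SE 0.047, limma adjusted p = 7.13e-11). In both, the recovery libraries lay well below the stress libraries. The other 2 of the 4 largest falls were also short, with 104 and 127 codons.

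**Figure D4:**
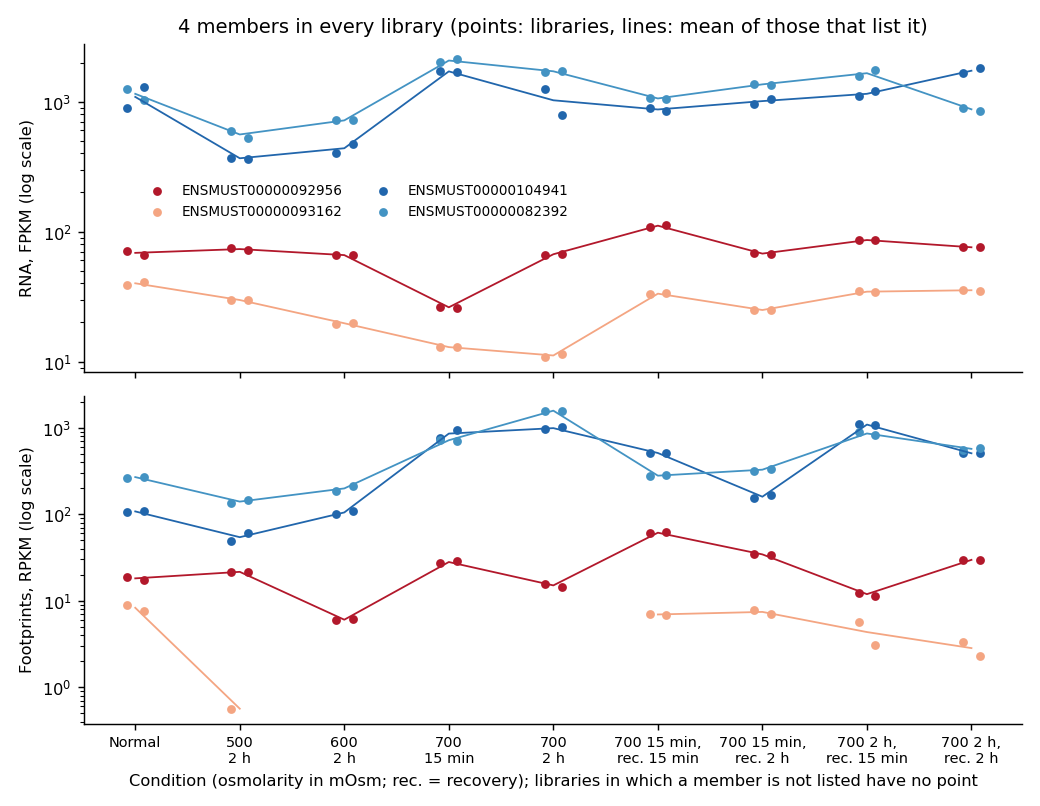
RNA FPKM (upper panel) and footprint RPKM (lower panel), both on log scales, of the 4 members named by identifier in all 9 conditions, with 1 point a library and lines through the mean of the libraries that list the member. The RNA of ENSMUST00000092956 and ENSMUST00000093162 is low at 700 mOsm 15 min and higher after 15 min of recovery, and that of ENSMUST00000104941 and ENSMUST00000082392 is high at 700 mOsm 15 min. The footprints of ENSMUST00000093162 have no points at 600 mOsm and in the 700 mOsm stress conditions.

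The longer stress at 700 mOsm also left more members higher than lower. Between 15 min and 2 h of 700 mOsm, 104 members rose and 35 fell, beside 22.4% and 28.6% of all transcripts tested. The median log2 difference was 0.22 in members and -0.02 in all transcripts. Of the 14 members with over 1600 codons 8 rose and 5 fell, while 15.1% of the other eligible transcripts of that length rose and 59.3% fell. Of the 43 members with over 800 and up to 1600 codons 22 rose and 10 fell, beside 14.9% and 49.4%. The difference between members and others was not tested. The member with 4645 codons went from 10.5 and 11.1 to 25.8 and 30.3 scaled FPKM, a rise of 1.29 (SE 0.084, limma adjusted p = 1.40e-08).

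In late recovery from the long exposure the balance was nearer to that of all transcripts. Between 700 mOsm 2 h and 2 h of recovery from it, 105 members rose and 45 fell, beside 42.1% and 24.1% of all transcripts tested. The members' median was 0.22, and that of all transcripts was 0.12. Of the 5507 other eligible transcripts, which share the members' RNA minimum, 2103 rose and 1785 fell, with a median of 0.03. Rises thus outnumbered falls more in members than in those transcripts. With over 800 and up to 1600 codons 35 of 43 rose, beside 57.3% of the others of that length. The member with 658 codons at rank 36 went from 10.8 and 11.1 to 42.4 and 43.2 scaled FPKM, a rise of 1.87 (SE 0.098, limma adjusted p = 1.19e-10). The member with 515 codons went from 6255 and 6388 to 3025 and 2817, and fell by 1.11 (SE 0.071, limma adjusted p = 1.10e-09).

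Between osmolarities at 2 h, falls outnumbered rises. From 600 to 700 mOsm 38 members rose and 79 fell, beside 17.5% and 33.0% of all transcripts tested. The members' shares were thus close to those of all transcripts tested. Of the 5507 other eligible transcripts 1362 rose and 1840 fell. The median log2 difference was -0.11 in members and -0.03 in the other eligible transcripts. Without scaling between libraries the counts were 32 and 91 in members, and 1138 and 3623 beside 1620 and 3064 in all transcripts. Long members fell most often, with 30 of 43 over 800 and up to 1600 codons and 9 of 14 over 1600, beside 61.8% and 79.1% of the others of those lengths. From 500 to 600 mOsm 14 members rose and 46 fell, beside 6.38% and 10.4% of all transcripts tested. Those counts were the least stable, with 2 to 10 rises and 26 to 33 falls when any 1 of the 4 libraries was left out. The member with 658 codons went from 50.7 and 52.0 to 10.1 and 11.2 scaled FPKM, a fall of 2.17 on the log2 scale (SE 0.091, limma adjusted p = 1.13e-10).

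**Figure D5:**
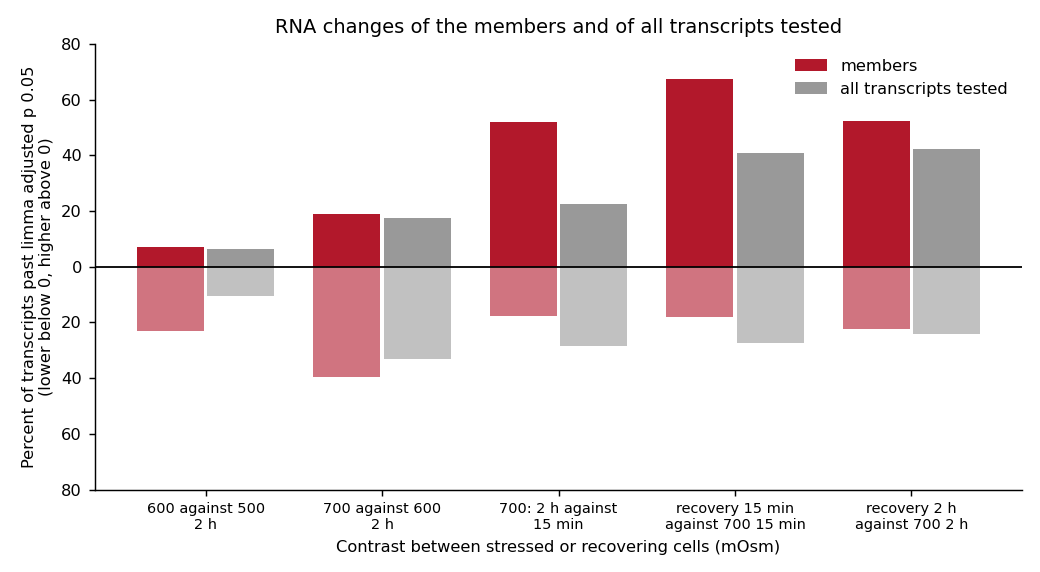
Percent of transcripts past a limma adjusted p of 0.05 (higher above 0, lower below 0) in the 5 RNA contrasts (horizontal), for the 200 members in red and all 9275 transcripts tested in grey. Rises exceed the grey bars most at 700 mOsm 2 h against 15 min (104 members) and in 15 min of recovery (135 members).

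The member with the lowest ratio, with 903 codons, had the RNA value that differed most between replicates. Its scaled FPKM was 1917 and 7466 at 700 mOsm 2 h, 1166 and 988 at 600 mOsm, and 1451 and 1305 at 700 mOsm 15 min. The log2 difference between 700 and 600 mOsm was 1.82 (SE 0.35, limma adjusted p = 0.000425), but 0.83 without replicate 2 and 2.80 without replicate 1 of 700 mOsm 2 h. It was listed in neither footprint library of the 700 mOsm stress conditions, and in both of every other condition it had 1.84 to 4.38 RPKM. Over the members as a whole, the SD of the log2 ratio of RNA replicates was 0.075 to 0.260, widest in Normal Condition and next at 700 mOsm 2 h. The chi-square per degree of freedom between RNA replicates was 211 in members and 47.1 over transcripts in Normal Condition. At 700 mOsm 2 h it was 908 and 23.0, so RNA replicates differed by far more than counting noise there.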

How the data were processed

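Ribo-seq and RNA-seq of cytoplasmic extracts gave 18 libraries each, with 1 list of transcript identifiers and values a library. The authors deposited RPKM values for footprints and FPKM values for RNA, as the file names state. Per the submitters' processing notes, the tools included cutadapt, Bowtie and STAR, with mouse build GRCm38. Versions, annotation and counting rules: not given in the sources used here. Each value was solved for whole reads, a length and a library total, since all were whole within a relative tolerance of 1e-09. Lengths behind footprint values were solved in whole codons, so their divisibility by 3 was set and not found. The term coding length rests on that setting. Groups follow the labels.

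The rule used the mean of 2 libraries per assay. Ratios take a missing footprint value as 0, or as 4 reads in the bound. A ratio or footprint change was called at 2-fold, and only where the higher side was listed in both libraries. RNA was scaled by the median ratio over 5705 transcripts, filtered at a mean of 2 scaled FPKM, and tested as log2(value + 1) with limma 3.58.1 (R 4.3.3), 9 group means, 1 weight per group, a mean-variance trend and Benjamini-Hochberg adjustment over all 9275 transcripts. Fold changes are on that scale and understate low transcripts. Total reads were 744700 to 9108030 in footprint and 6851961 to 55262422 in RNA libraries. No batch is named in the labels. Alternatives were scaling, pseudocount, filter, weights, groups in the fit, the replicate block, and leaving out libraries. The steps were tested on simulated data.

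The members and lists were chosen with earlier results of these data known. Members described singly were the lowest ratios, the highest RNA, the largest tested RNA changes and the largest ratio changes at 500 mOsm. Because no table used here pairs the identifiers with gene names, the prepared gene and marker lists were not applied, at most 2 identifiers in each direction are printed, and no sequence is shown.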

Additional observations from a re-analysis of the deposited data

How the results depend on the processing

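Calls of singly described members held their side and direction in most settings. Of the alternatives for counts, shares, median ratios and lengths, 166 stayed close to the main value, 45 moved and 1 changed sign. Changes of unit are among those that moved. Of 400 refits of singly described RNA changes, 388 kept direction and significance and 12 lost significance, all 12 among small rises from 500 to 600 mOsm, and none changed sign. For 600 against 500 mOsm, no filter on low values gave 8 rises in place of 14. Leaving out 1 library gave 2 to 10 rises and 26 to 33 falls there, 33 to 42 and 64 to 77 for 700 against 600 mOsm, 86 to 108 and 24 to 37 for 2 h against 15 min of 700 mOsm, 122 to 127 and 32 to 35 for early recovery, and 90 to 105 and 37 to 45 for late recovery. The lone library of a group is then assumed to vary like the others.

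In the groups compared, replicate numbers did not pair the RNA samples: the differences between replicates correlated at -0.079 to 0.032. Over all pairs of groups in the fit the correlations ran from -0.31 to 0.31. With the replicate block the members that rose and fell were 14 and 46, 38 and 79, 105 and 32, 135 and 36, and 104 and 45, in the order of the contrasts above.

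In the order of conditions given at the start, with recoveries from the short exposure before those from the long one, summing recovered reads in place of RPKM gave the members 0.675, 0.539, 0.651, 1.05, 1.32, 0.862, 0.722, 1.02 and 0.736% of footprints. Missing members at 4 reads gave 0.388% (600 mOsm), 0.607% (700 mOsm, short) and 0.756% (700 mOsm, long). Single libraries ranged from 0.442 to 0.444, 0.335 to 0.337, 0.377 to 0.384, 0.572 to 0.586, 0.724 to 0.742, 0.538 to 0.538, 0.464 to 0.466, 0.770 to 0.779 and 0.497 to 0.502%. Divided by the median ratio of all eligible transcripts, a change of unit, the median member ratio was 0.119, 0.0353, 0.0277, 0.0887, 0.157, 0.110, 0.112, 0.104 and 0.0627. Over members listed in both libraries it was 0.0745 (500 mOsm), 0.0915 (600 mOsm), 0.284 and 0.227 (700 mOsm, short and long), and 0.185 and 0.105 in recovery from the long exposure, and fewer members enter there. Single replicates gave 0.185 to 0.202, 0.0549 to 0.0572, 0.0338 to 0.0429, 0 to 0.0390, 0.0900 to 0.135, 0.189 to 0.196, 0.180 to 0.189, 0.173 to 0.181 and 0.0973 to 0.101. With the doubtful RNA groups exchanged the ratio at 2 h of recovery from the short exposure was 0.197, an alternative chosen after seeing the data.

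Leaving missing transcripts out of the lowest ratios changes the list's length and the eligible set as well. At 700 mOsm 15 min it gave 25 of 69 eligible members in a list of 200, in place of 61 of 162 among 641 tied at 0. The counts were 91 in place of 113 (500 mOsm), 50 in place of 71 (600 mOsm) and 33 in place of 44 (700 mOsm, long). Single replicates gave 108 to 111 at 500 mOsm, 57 to 71 at 600 mOsm, 69 to 85 and 54 to 69 in the short and long exposures to 700 mOsm, 139 to 145 and 152 to 157 in recovery from the short and 113 to 115 and 125 to 127 in recovery from the long exposure. An RNA minimum of 5 FPKM kept 158 members, 20 FPKM kept 145, lengths over 500 nt kept 192, and each replicate alone kept 176. The excess of members over other transcripts in median coding length, 173.5 codons, was 84 codons with a minimum of 20 FPKM. That in non-coding length, 27.5 nt, was 147 nt with this minimum and -34.5 nt against transcripts of the same RNA range, and the cause was not tested.

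At 600 mOsm and in the short and long 700 mOsm exposures 57, 83 and 62 of 200 members were in neither footprint library. Of these, 40, 13 and 4 had at least 20 reads expected from their unstressed footprint level, so depth limited mainly the 700 mOsm conditions.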
